A study of Mus musculus with 14 samples.

Results

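Alcohol dehydrogenases and aldehyde dehydrogenases were examined as a group of 10 genes in bulk RNA-Seq of mouse esophagus. Adh1, Adh5 and Adh7 encode alcohol dehydrogenases, and Aldh1a1, Aldh1a2, Aldh1a3, Aldh2, Aldh3a1, Aldh3a2 and Aldh3b1 encode aldehyde dehydrogenases. The genes were chosen by symbol, and all 10 were found among the 55291 genes of the count tables. The 14 libraries came from 9 wild type C57BL/6 mice, for which neither a transgene nor a treatment is given. Peeled esophageal epithelium was sequenced from 5 aged mice of at least 18 months (O1, O2, O3, OF5 and OM8) and from 4 young mice of at most 4 months (Y1, Y3, YF5 and YM4). Stroma was sequenced for O1, O2 and O3 among the aged and Y1 and Y3 among the young. The paper describes physical removal of the muscle layer, which left a mucosal layer enriched in epithelium. Its text does not say which tissue made up the stroma. The 2 layers of a mouse are not independent samples, so a test over 14 libraries draws on 9 mice.

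Alcohol dehydrogenases oxidize alcohols to aldehydes, and aldehyde dehydrogenases oxidize aldehydes to carboxylic acids. Ethanol is converted in this way to acetaldehyde and then to acetate, and retinol to retinal and then to retinoic acid, a regulator of squamous differentiation. The upper digestive tract is exposed to ethanol and to reactive aldehydes from the diet, and Adh7 and Aldh3a1 are known for their high levels in stratified surface epithelia.

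Several of these genes lie next to each other in the mouse genome (GRCm38, GENCODE M21 annotation). Adh7 (chr3:138217760-138233382) and Adh1 (chr3:138260991-138290698) are neighbors on the plus strand, 27608 bases apart, with 0 protein-coding genes between them. Adh5 (chr3:138443093-138455499) ends the same cluster. Aldh3a1 (chr11:61207537-61218421, plus strand) and Aldh3a2 (chr11:61223417-61267464, minus strand) are separated by 4995 bases. Aldh1a1 (chr19:20492715-20643465, plus strand) lies 49487 bases from its closest relative Aldh1a7 (chr19:20692953-20727562, minus strand). The other members are at chr9:71215789-71296243 (Aldh1a2), chr7:66390890-66427517 (Aldh1a3), chr5:121566027-121593824 (Aldh2) and chr19:3913491-3929808 (Aldh3b1). All 10 are annotated as protein-coding, and counts cover their exons, untranslated regions included. Annotated genes on the opposite strand overlap Adh1 (Gm16559), Adh7 (0610031O16Rik), Aldh1a1 (C730002L08Rik and Gm6684), Aldh1a2 (Gm48124) and Aldh2 (Gm42879). These are overlaps of whole gene spans, and overlap of exons was not examined. Whether strand was used in counting is not given in the sources used here, so reads from any shared exon bases could not be told apart.

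Promoter sequences are shown for Adh7, Aldh1a1 and Aldh1a7 because each differed between the layers otherwise than its neighbor or closest relative. They are from RefSeq (GRCm38.p6) and run from 250 bases before to 50 bases after a start site, 5′ to 3′ on the strand of the gene. Capitals mark matches, on either strand, to TATAAA (common in core promoters), GCGTG (core of sites for AHR with its partner ARNT), TGACNNNGC (core of the antioxidant response element), TGANTCA (site of AP-1 factors) or CCAAT (site of NF-Y). None of the matches in these windows overlapped another. The windows are chr3:138217523-138217822 (plus strand) for Adh7, chr19:20492333-20492632 and chr19:20601718-20602017 (plus strand) for the first and second start of Aldh1a1, and chr19:20727507-20727806 (minus strand) for Aldh1a7.
Adh7: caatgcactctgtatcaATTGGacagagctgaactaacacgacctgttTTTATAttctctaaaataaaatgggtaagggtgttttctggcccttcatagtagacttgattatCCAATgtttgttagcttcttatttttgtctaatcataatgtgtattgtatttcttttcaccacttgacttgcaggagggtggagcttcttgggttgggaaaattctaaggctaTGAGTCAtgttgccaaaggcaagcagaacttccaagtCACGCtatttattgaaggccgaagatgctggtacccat
Aldh1a1, first start: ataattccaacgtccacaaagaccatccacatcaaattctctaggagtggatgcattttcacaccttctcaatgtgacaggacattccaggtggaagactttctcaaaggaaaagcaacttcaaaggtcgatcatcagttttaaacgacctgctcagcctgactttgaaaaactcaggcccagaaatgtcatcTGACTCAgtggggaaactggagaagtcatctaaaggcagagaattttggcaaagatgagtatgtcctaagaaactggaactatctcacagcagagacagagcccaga
Aldh1a1, second start: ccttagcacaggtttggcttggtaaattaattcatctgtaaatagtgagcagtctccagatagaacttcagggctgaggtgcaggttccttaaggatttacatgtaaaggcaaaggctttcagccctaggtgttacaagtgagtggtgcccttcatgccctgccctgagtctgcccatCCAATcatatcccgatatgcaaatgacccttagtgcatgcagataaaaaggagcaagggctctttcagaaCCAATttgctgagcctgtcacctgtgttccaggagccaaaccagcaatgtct
Aldh1a7: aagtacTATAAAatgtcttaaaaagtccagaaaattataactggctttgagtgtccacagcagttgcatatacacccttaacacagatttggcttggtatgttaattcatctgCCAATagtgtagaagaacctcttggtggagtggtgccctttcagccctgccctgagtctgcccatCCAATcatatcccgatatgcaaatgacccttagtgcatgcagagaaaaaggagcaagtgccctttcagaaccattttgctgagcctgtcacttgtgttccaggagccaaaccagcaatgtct

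With the start site counted as 0, the Adh7 window held TGANTCA at -25, CCAAT at -138 and, on the opposite strand, CCAAT at -233, TATAAA at -202 and GCGTG at 12. Among 32851 promoters of the same length, 7.81% held TGANTCA, 37.4% CCAAT, 13.6% TATAAA, 32.4% GCGTG and 12.4% TGACNNNGC. The first window of Aldh1a1 held TGANTCA at -57, and the second held CCAAT at -72 and -2. The Aldh1a7 window held CCAAT at -72 and -137 and TATAAA at -244. Over 285 aligned bases, the second window of Aldh1a1 and that of Aldh1a7 were 77.5% identical, against 65.3% over 262 bases for the first. These matches describe the letters of the windows and were not tested for function.

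The coding sequences of Aldh1a1 and Aldh1a7 were 91.6% identical over 1503 bases in the same annotation. A stretch of 60 coding bases (bases 317 to 376) in which they differ most is shown, with the 16 mismatched bases in capitals. It is not typical of the pair, since coding bases 757 to 856 are identical in the 2 genes.
Aldh1a1: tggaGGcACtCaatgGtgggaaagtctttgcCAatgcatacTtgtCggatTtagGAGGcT
Aldh1a7: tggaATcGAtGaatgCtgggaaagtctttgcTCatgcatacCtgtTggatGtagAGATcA

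The longest run shared by the coding sequences of this pair was 100 bases, and untranslated regions were not searched for longer runs. Over whole transcripts, 6.06% of the windows of 50 bases in Aldh1a1 also occurred in Aldh1a7. Aldh3b1 shared 6.51% of such windows with Aldh3b2. None was shared between Aldh1a1 and Aldh1a2 or Aldh1a3, between Aldh3a1 and Aldh3a2, or among Adh1, Adh5 and Adh7. How reads that match several genes were counted is not given in the sources used here, so values of Aldh1a1 and Aldh3b1 carry this uncertainty.

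The libraries differed in depth and composition, which bears on the low genes. Total counts ran from 8217516 to 21867101. For OF5, OM8, YF5 and YM4, which gave epithelium only, the rRNA locus CT010467.1 held 63.9% to 73.9% of all counts. It held 10.4% to 23.3% in epithelium from the 5 other mice and 1.47% to 1.88% in stroma. Levels are given as normalized counts, the CPM that edgeR computes from TMM-scaled library sizes, so that 3 counts correspond to 0.707 to 1.25 in those 4 libraries and to 0.0872 to 0.175 in the other 10. Keratinocyte markers followed the labels, with 6 of 6 basal and 6 of 6 differentiated markers higher in epithelium. Lower were 6 of 6 skeletal muscle, 3 of 5 smooth muscle, 2 of 5 fibroblast, 3 of 3 endothelial, 2 of 3 macrophage, 3 of 3 Schwann cell and 3 of 3 adipocyte markers. Over all tested genes, 26.1% were higher and 30.1% lower at an adjusted p under 0.05 (edgeR), so the fibroblast count is near the background. Summed skeletal muscle markers were 15599 to 23767 in stroma and 2.76 to 909 in epithelium, so the stromal libraries held much muscle RNA. The summed fibroblast markers overlapped between the layers, at 185 to 416 in epithelium and 244 to 643 in stroma.

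Epithelium and stroma were compared over all 14 libraries. Adh7 and Aldh3a1 were higher in epithelium by more than 7 on the log2 scale, while Aldh1a1, Aldh1a2 and Aldh1a3 were lower, and Adh1, Adh5, Aldh2, Aldh3a2 and Aldh3b1 were not called. A call is an adjusted p under 0.05 in edgeR's quasi-likelihood test (Benjamini-Hochberg, over 16791 genes). The share of all tested genes called was 56.2%, with 26.1% higher and 30.1% lower in epithelium, so 2 higher and 3 lower among 10 members is near the background. The size of the difference set Adh7 and Aldh3a1 apart within the group: the median log2 fold change of the members was -0.35, against -0.05 for all genes. In 4 of the 10 members the layers did not overlap, as in 31.3% of all tested genes. In bulk tissue, fewer cells of a type and less RNA per cell cannot be told apart.

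**Figure D1:**
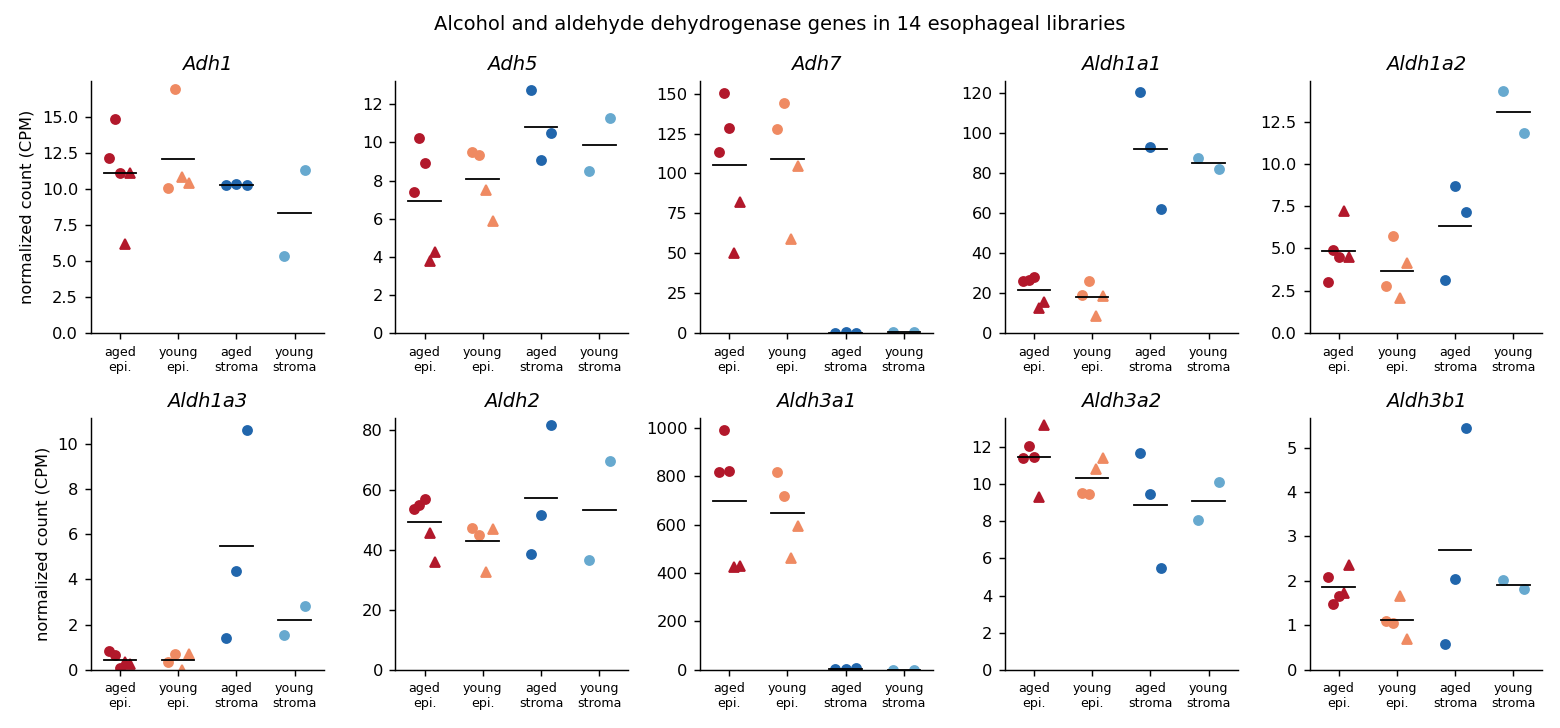
Normalized count (CPM from TMM-scaled library sizes, linear axes from 0) of each gene in each of the 14 libraries, in 4 groups, with bars for group means; triangles mark the mice with epithelium only (OF5, OM8, YF5 and YM4). Adh7 and Aldh3a1 are near 0 in stroma, and Aldh1a1 and Aldh1a3 are lower in every epithelial than in every stromal library. Aged and young epithelium, with the triangles included, overlap for each gene.

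Among the alcohol dehydrogenases, Adh7 encodes the class IV enzyme, which oxidizes retinol as well as ethanol. Its normalized count in epithelium had a lowest value of 50.3, a median of 113.6 and a highest value of 150.4 (mean 107 ± 35.9, SD, n = 9). In stroma it was 0.175 in O1, 0.616 in O2, 0.0383 in O3, 0.464 in Y1 and 0.355 in Y3. These stromal values rest on 3, 15, 1, 9 and 9 counts, and every epithelial library lay above every stromal library. Adh7 thus had a log2 fold change of 8.32 (SE 0.48, 95% interval 7.31 to 9.33, adjusted p = 3.97e-11, edgeR).

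Adh1 encodes the class I enzyme best known from liver, and Adh5 the class III enzyme that acts on the glutathione adduct of formaldehyde. Adh1 ranged from 6.20 to 16.9 in epithelium with a median of 11.1 (mean 11.5 ± 3.02, SD, n = 9). Its stromal values were 10.3 in O1, 10.4 in O2, 10.3 in O3, 5.31 in Y1 and 11.3 in Y3. The layers overlapped, and the log2 fold change was 0.30 (SE 0.22, 95% interval -0.17 to 0.76, adjusted p = 0.263, edgeR). Within the 5 mice with both layers, Adh1 was higher in epithelium in 5 of 5, by 0.11 to 0.86 on the log2(normalized count + 0.5) scale. The share of all genes with the same direction in 5 of 5 mice is not given here, and no alternative in the processing called Adh1 between the layers.

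Adh5 ranged from 3.79 to 10.2 in epithelium with a median of 7.50, and was 12.8, 9.08 and 10.5 in the stroma of O1, O2 and O3 and 8.51 and 11.3 in that of Y1 and Y3. Its layers overlapped as well, and its lowest epithelial values were those of OF5 and OM8. The log2 fold change was -0.44 (SE 0.23, 95% interval -0.92 to 0.03, adjusted p = 0.105, edgeR). This call depended on the processing, since Adh5 was called lower in epithelium with DESeq2 (-0.51, adjusted p = 0.0218), with upper quartile normalization (-0.56, adjusted p = 0.0245) and with at least 10 counts required in every library (-0.77, adjusted p = 0.00187). With a block for mouse, over the paired layers of 5 mice, it was -0.18 (adjusted p = 0.512).

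Adh7 made up most of the alcohol dehydrogenase transcripts in epithelium and few in stroma. Per kb of exon, Adh7 took 71.5% to 84.3% of the sum of Adh1, Adh5 and Adh7 in the 9 epithelial libraries, and 0.154% to 3.01% in the 5 stromal libraries. Its direct neighbor Adh1 had levels per kb of 5.16 ± 1.35 (SD, n = 9) in epithelium and 4.25 ± 1.07 (SD, n = 5) in stroma. The cluster's Adh6a was also called higher in epithelium, with a log2 fold change of 3.71 (SE 0.69, adjusted p = 1.37e-04, edgeR) and normalized counts of 1.41 to 6.84 against 0 to 0.985. Adh4 and Adh6b did not pass the filter on low counts.

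Of the ALDH3 enzymes, which oxidize medium and long chain aldehydes and products of lipid peroxidation, Aldh3a1 had the highest level per kb of exon. Its normalized count in epithelium had a lowest value of 425.5, a median of 719 and a highest value of 993 (mean 676 ± 206, SD, n = 9). In stroma it was 1.28 in O1, 4.03 in O2, 6.27 in O3, 0.877 in Y1 and 0.749 in Y3. The lowest epithelial library was well above the highest stromal library, and 4 of 4 mice with epithelium only lay below the other 5. For Aldh3a1 the log2 fold change was 7.98 (SE 0.61, 95% interval 6.71 to 9.26, adjusted p = 1.55e-09, edgeR), and 8.75 in the 5 paired mice with mouse as a block (adjusted p = 8.56e-06).

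Aldh3a2, the fatty aldehyde dehydrogenase of the endoplasmic reticulum, lies directly beside Aldh3a1 and was not called. It ranged from 9.30 to 13.2 in epithelium with a median of 11.4, and was 11.7, 9.49, 5.51, 8.05 and 10.1 in the stroma of O1, O2, O3, Y1 and Y3. The layers overlapped, with a log2 fold change of 0.29 (SE 0.19, 95% interval -0.11 to 0.69, adjusted p = 0.203, edgeR). Per kb of exon, Aldh3a1 took 98.9% to 99.6% of the sum of this pair in epithelium and 17.6% to 76.7% in stroma.

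Aldh3b1, which acts on medium and long chain aldehydes, rested on few counts in both layers. It ranged from 0.692 to 2.36 in epithelium, on 2 to 72 counts, and from 0.583 in O1 to 5.43 in O3 in stroma. The layers overlapped, and the log2 fold change was -0.64 (SE 0.44, 95% interval -1.56 to 0.29, adjusted p = 0.229, edgeR). Its relative Aldh3b2 was called higher in epithelium, at 62.9 to 152 normalized counts against 0.459 to 5.16, with a log2 fold change of 5.23 (SE 0.51, adjusted p = 1.90e-07, edgeR).

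Transcripts of Aldh1a1, Aldh1a2 and Aldh1a3, whose enzymes make retinoic acid from retinal, were each lower in epithelium. Those of their relative Aldh1a7 were not, as given below. Aldh1a1 had a lowest value of 8.75, a median of 18.9 and a highest value of 27.9 in epithelium (mean 20.0 ± 6.95, SD, n = 9). Its stromal normalized counts were 120 in O1, 92.8 in O2, 62.0 in O3, 87.6 in Y1 and 81.8 in Y3 (mean 88.9 ± 21.1, SD, n = 5). The layers did not overlap, and the log2 fold change was -2.11 (SE 0.22, 95% interval -2.58 to -1.65, adjusted p = 9.51e-08, edgeR).

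Aldh1a3 had the lowest level per kb of the members in epithelium, at 0 to 0.814 normalized counts with a median of 0.354, on 0 to 28 counts. In stroma it was 1.40 in O1, 4.36 in O2, 10.6 in O3, 1.55 in Y1 and 2.84 in Y3. Every stromal library lay above every epithelial library, although the stromal values differed among mice by more than those of Aldh1a1. Aldh1a3 had a log2 fold change of -3.11 (SE 0.56, 95% interval -4.27 to -1.95, adjusted p = 8.01e-05, edgeR). Without mouse O3, whose stroma had the highest value, it was -2.23 and still called (adjusted p = 0.00122, edgeR).

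Aldh1a2 showed the smallest of the 3 differences. It ranged from 2.08 to 7.24 in epithelium with a median of 4.48, and was 3.15 in O1, 8.67 in O2, 7.15 in O3, 14.3 in Y1 and 11.9 in Y3 in stroma. The layers overlapped because of O1 stroma and OF5 epithelium. The log2 fold change was -1.07 (SE 0.31, 95% interval -1.72 to -0.41, adjusted p = 0.00672, edgeR), and the call was lost without mouse Y1 (-0.76, adjusted p = 0.0711). In the 5 mice with both layers, each of the 3 genes was lower in epithelium in 5 of 5 mice.

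The closest relative of Aldh1a1 differed in the opposite direction. Aldh1a7 had 28.2 to 71.2 normalized counts in epithelium and 0.758 to 5.56 in stroma, a log2 fold change of 4.47 (SE 0.49, adjusted p = 7.37e-07, edgeR). Per kb of exon, Aldh1a7 took 81.6% to 89.0% of the sum of Aldh1a1 and Aldh1a7 in epithelium and 1.48% to 13.96% in stroma. Shared reads between this pair, whose coding sequences are compared above, would mix the values of the 2 genes, and the size of that effect was not tested.

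Aldh2 encodes the mitochondrial enzyme that clears acetaldehyde, and it was not called between the layers. It ranged from 32.5 to 57.0 in epithelium with a median of 47.1, and was 38.7, 51.6, 81.6, 36.6 and 69.8 in the stroma of O1, O2, O3, Y1 and Y3. The layers overlapped, with epithelium higher in 3 of 5 mice. The log2 fold change was -0.25 (SE 0.19, 95% interval -0.65 to 0.15, adjusted p = 0.279, edgeR), but with at least 10 counts required in every library it was -0.56 and called (adjusted p = 0.00762). Under the same filter Adh1 and Aldh3a2 turned to -0.015 and -0.024 and were not called.

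**Figure D2:**
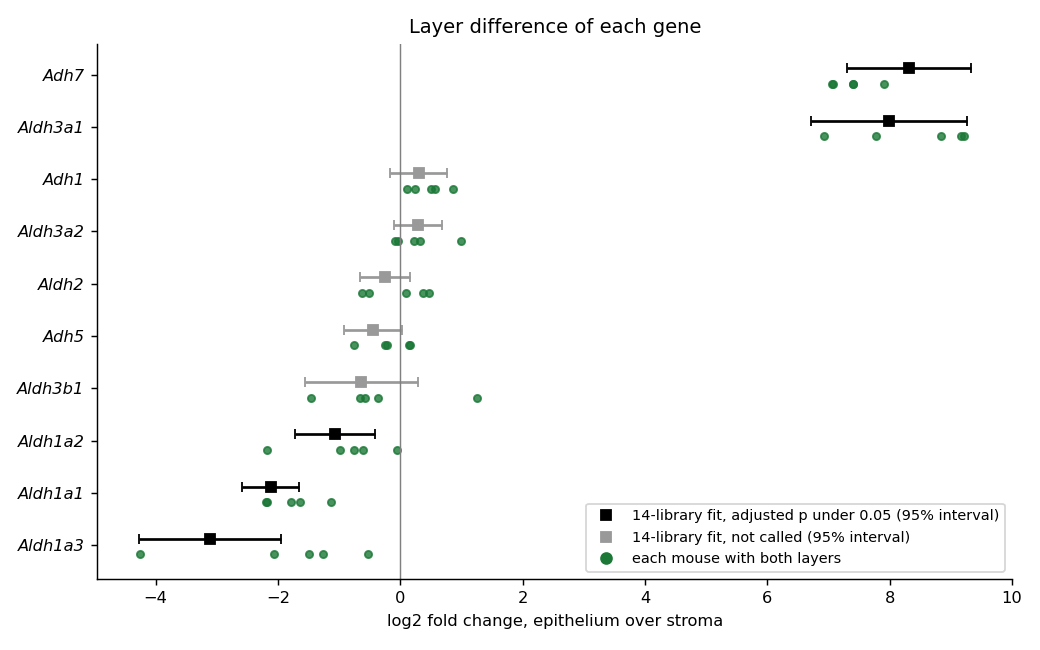
Log2 fold change of epithelium over stroma for each gene: squares with 95% intervals are from edgeR over 14 libraries (black for an adjusted p under 0.05, gray for not called), and green points are the 5 mice with both layers on the log2(normalized count + 0.5) scale. Adh7 and Aldh3a1 lie at 8.32 and 7.98, while the points of Aldh2, Adh5, Aldh3a2 and Aldh3b1 fall on both sides of 0.

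Levels of different genes were compared per kb of exon. In epithelium, Aldh3a1 had 348 ± 106 normalized counts per kb (SD, n = 9), and made up 83.6% to 88.2% of the sum over the 10 members. Adh7 followed with 28.2 ± 9.49, then Aldh2 with 9.09 ± 1.61, Adh1 with 5.16 ± 1.35 and Aldh1a1 with 4.06 ± 1.41. Aldh3a2 (1.95), Aldh1a2 (1.91), Adh5 (1.37), Aldh3b1 (0.750) and Aldh1a3 (0.0933) completed the order of mean levels per kb. Only Aldh3a1, Adh7 and Aldh3b1 had a range over the 9 libraries that did not overlap that of the next gene, while the other neighbors had overlapping ranges. Within libraries, Aldh2 was above Adh1 in 9 of 9, Adh1 above Aldh1a1 in 8 of 9 and Aldh1a1 above Aldh3a2 in 8 of 9.

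In stroma, the order was another one. Aldh1a1 had 18.0 ± 4.26 normalized counts per kb (SD, n = 5), with 26.5% to 55.8% of the members' sum, and Aldh2 had 10.9 ± 3.83. These ranges overlapped, with Aldh1a1 above Aldh2 in 4 of 5 libraries. Adh1 (4.25), Aldh1a2 (3.99), Adh5 (1.93), Aldh3a2 (1.596), Aldh3a1 (1.36), Aldh3b1 (1.16), Aldh1a3 (0.900) and Adh7 (0.0871) followed. The range separated from that of the next gene only after Aldh2 and after Aldh1a3.

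**Figure D3:**
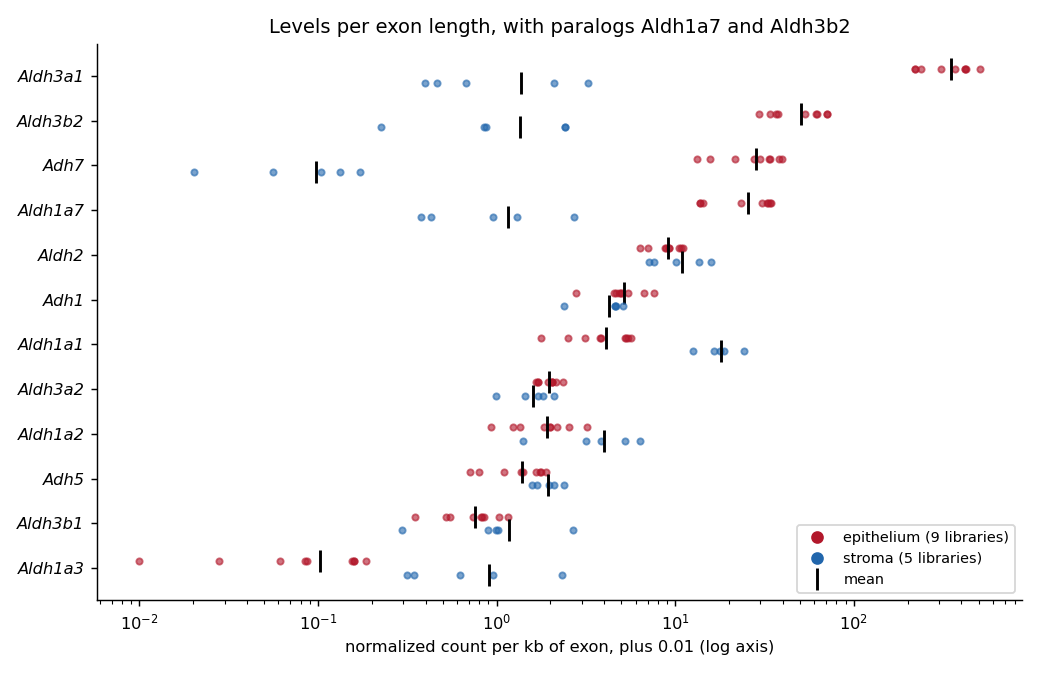
Normalized count per kb of exon (log axis, 0.01 added) in the 9 epithelial and 5 stromal libraries for the 10 members and the paralogs Aldh1a7 and Aldh3b2; points are libraries and vertical bars are means. Aldh3a1, Aldh3b2, Adh7 and Aldh1a7 lie highest in epithelium with 0 overlap with stroma, and Aldh1a1 and Aldh1a3 lie higher in stroma.

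Other genes of these pathways were counted from fixed lists. Among the other aldehyde dehydrogenases, 6 of 13 tested were higher in epithelium, 3 were lower and 4 were not called. Over all tested genes, 26.1% were called higher and 30.1% lower. The higher genes, besides Aldh1a7 and Aldh3b2, were Aldh1l2 (2.68, adjusted p = 1.29e-06), Aldh3b3 (2.38, adjusted p = 0.0102), Aldh5a1 (2.27, adjusted p = 2.43e-07) and Aldh9a1 (1.85, adjusted p = 1.24e-06), given as log2 fold changes with edgeR's adjusted p. Aldh5a1 oxidizes succinic semialdehyde, and Aldh9a1 acts on aminoaldehydes. The lower genes included the mitochondrial enzymes Aldh4a1 (-1.26, adjusted p = 0.00908) and Aldh6a1 (-1.23, adjusted p = 4.55e-05) of amino acid breakdown. The median log2 fold change of this list was 0.53, against -0.05 for all genes.

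Among the genes that handle ethanol, formaldehyde and acetate, 1 of 6 was higher in epithelium and 3 were lower, with a median of -0.57. All tested genes had a median of -0.05, with 26.1% called higher and 30.1% lower. Esd, whose product S-formylglutathione hydrolase acts after Adh5, was higher (1.30, adjusted p = 4.79e-05, edgeR). Cyp2e1, a microsomal ethanol oxidase, was lower (-5.58, adjusted p = 5.57e-06), as were Cat (-0.995, adjusted p = 0.00111), which encodes catalase, and Acss1 (-2.74, adjusted p = 5.25e-09), a mitochondrial acetate-activating enzyme. Adhfe1, of the remaining alcohol dehydrogenases, was lower at -3.26 (adjusted p = 9.83e-06).

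Of the retinoid genes, 7 of 14 tested were higher in epithelium, 3 were lower and 4 were not called, with a median of 0.70. All tested genes had a median of -0.05, with 26.1% called higher and 30.1% lower. The binding protein gene Crabp2 had the largest difference (7.87, SE 0.46, adjusted p = 3.84e-11, edgeR), followed by the short-chain dehydrogenase genes Dhrs9 (5.28) and Sdr16c5 (3.95). Cyp26b1, whose product degrades retinoic acid (3.18), the receptor gene Rarg (2.55), Rdh11 (2.12), also a short-chain dehydrogenase gene, and the retinal reductase gene Dhrs3 (0.82) were also higher. The lower genes included the receptor genes Rarb (-1.96) and Rara (-1.58). Rdh10, which encodes another retinol dehydrogenase, was not called (0.57, adjusted p = 0.281).

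Regulators and targets of AHR and NRF2, transcription factors that respond to xenobiotics and to electrophiles, were included because they are known to act on Aldh3a1 and related genes. Of the 14, 9 were higher in epithelium, 1 was lower and 4 were not called, with a median log2 fold change of 0.95. All tested genes had a median of -0.05, with 26.1% called higher and 30.1% lower. Nfe2l2, which encodes NRF2, was higher by 2.62 (SE 0.22, adjusted p = 2.97e-09, edgeR) and Ahr by 1.73 (SE 0.24, adjusted p = 3.56e-06). The targets Hmox1 (3.67), Gclm (1.42), Nqo1 (1.27), Tiparp (1.21), Gclc (0.70) and Txnrd1 (0.50) and the AHR partner gene Arnt (0.41) were also higher. Keap1, whose product restrains NRF2, was lower (-0.74, adjusted p = 0.0159). Cyp1a1, the classical AHR target, was not called (1.46, SE 1.03, adjusted p = 0.236).

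The pattern of the leading member of each layer was compared with that of all other genes by Pearson's r over the 14 libraries, on the log2(normalized count + 0.5) scale. For Aldh3a1, the most alike of 16790 genes were Gsta4 (r = 0.998), Cdh1 (r = 0.998), Scel (r = 0.997), Pkp1 (r = 0.997) and Gja1 (r = 0.996), and Adh7 stood at rank 196 (r = 0.981). For Aldh1a1 they were Gm10293 (r = 0.985), Tsc22d1 (r = 0.985), Vdac3-ps1 (r = 0.983), Gm10053 (r = 0.980) and Dhdh (r = 0.980). The 14 points fall into the 2 layers and share depth and composition within each, so these values describe the split of the layers more than variation within it.

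Epithelium from the 4 mice without stroma (OF5, OM8, YF5 and YM4) was set beside that from the other 5, a comparison added after the values had been seen. With age in the fit, 3 of the 10 members were called lower in these 4 libraries, where 7.3% of all tested genes were called lower and 6.73% higher. They were Adh7 (-0.67, SE 0.18, adjusted p = 0.0213), Aldh1a1 (-0.64, SE 0.19, adjusted p = 0.0322) and Aldh3a1 (-0.62, SE 0.15, adjusted p = 0.0120), each as a log2 fold change with edgeR's adjusted p. Each of the 3 was lower in every one of these libraries than in any other epithelium, as were 17.4% of tested genes. The paralogs Aldh1a7 (-0.85, adjusted p = 0.00199) and Aldh3b2 (-0.69, adjusted p = 0.00321) were lower too. Some keratinocyte markers also differed: 4 of 6 basal and 2 of 6 differentiated markers were called lower, and 4 differentiated markers were not called. Summed normalized counts were 835 to 1462 against 1752 to 2512 for basal and 17116 to 27638 against 41264 to 53232 for differentiated markers. Krt4 and Krt13 made up most of the differentiated sum. Krtdap, Cnfn and Ivl overlapped between these libraries and the other epithelium, while Lor did not. The rRNA share given above also differed, and the part of marker levels or rRNA share in these values was not tested. In the 10 libraries of the 5 mice with both layers, 2 members were again called higher and 3 lower in epithelium, with Adh7 at 8.65 and Aldh3a1 at 8.30.

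Aged and young mice were compared in each layer to ask whether these genes changed with age. In epithelium, 0 of the 10 members were called with edgeR, and 0 had an unadjusted p under 0.05. DESeq2 also called 0 of them. Among all 15859 genes tested, 0.0126% were called and 3.21% had an unadjusted p under 0.05. The median log2 fold change of the members was 0.05, against -0.0033 for all genes. Over all epithelial libraries, the aged and young ranges overlapped for each member. These ranges pool mice with both layers and mice with epithelium only, whose levels differed for some members as given above. The share of all genes with such overlap is not given here.

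Neither of the 2 members highest per kb in epithelium was called by age. Adh7 was 114, 150, 129, 50.3 and 82.3 in aged O1, O2, O3, OF5 and OM8, and 128, 144, 59.2 and 105 in young Y1, Y3, YF5 and YM4. Its log2 fold change of aged over young was -0.18 (SE 0.18, 95% interval -0.56 to 0.19). Aldh3a1 was 817, 993, 823, 425.5 and 428.5 in the aged mice, and 819, 719, 464 and 596 in the young mice, in the same order. In both genes the spread within an age was wider than the distance between the means, and the log2 fold change of Aldh3a1 was -0.06 (SE 0.15, 95% interval -0.37 to 0.26).

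Among the members, the largest fold by age in epithelium was that of Aldh3b1. It was 2.09, 1.48, 1.66, 1.72 and 2.36 in the aged mice and 1.10, 1.05, 1.67 and 0.692 in the young mice, on 2 to 72 counts. YF5 lay within the aged range, and the log2 fold change was 0.72 (SE 0.35, 95% interval -0.01 to 1.46, unadjusted p = 0.0541, adjusted p = 1.0, edgeR). The other 7 members ran from -0.27 for Adh5 to 0.19 for Aldh3a2, with intervals of which the widest, from -1.5 to 1.41, was that of Aldh1a3.

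In stroma, 9 members passed the filter and 0 were called by age with edgeR or DESeq2. Among all 21323 genes tested, 0% were called with edgeR and 3.64% had an unadjusted p under 0.05, and DESeq2 called 2. Adh7 was not tested, with 3, 15 and 1 counts in aged and 9 and 9 in young stroma. Only Aldh3a1 among the 9 had an unadjusted p under 0.05. With 3 aged and 2 young libraries the intervals were wide, for example -0.54 to 0.75 for Aldh1a1 and -0.73 to 0.94 for Aldh2.

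Aldh3a1 in stroma was 1.28, 4.03 and 6.27 in aged O1, O2 and O3, and 0.877 and 0.749 in young Y1 and Y3. The aged libraries lay above the young ones, as in 6.57% of all tested genes, and the log2 fold change was 2.24 (SE 0.97, 95% interval 0.07 to 4.42, unadjusted p = 0.0446, adjusted p = 1.0, edgeR). Keratinocyte markers differed among the same libraries. As a percentage of the level in the epithelium of the same mouse, stromal Aldh3a1 was 0.157 in O1, 0.405 in O2, 0.762 in O3, 0.107 in Y1 and 0.104 in Y3. Adh7 was 0.154, 0.410, 0.0297, 0.364 and 0.246 in the same order. The median of the 12 basal and differentiated keratinocyte markers on this scale was 0.570, 2.26, 1.25, 0.266 and 0.219. Stromal Aldh3a1 and the marker median were thus both higher in O2 and O3 than in the other 3 mice. Of the 12 markers, 8 in O1, 12 in O2, 10 in O3, 11 in Y1 and 10 in Y3 had a higher percentage than Aldh3a1, and Krt4 (0.410) and Krt13 (0.365) were the 2 that lay below it in O3. Summed differentiated keratinocyte markers were 36.0 to 435 in aged and 35.3 to 66.1 in young stroma, and basal markers 32.2 to 85.7 and 25.1 to 29.7. By age, 3 of 6 basal and 2 of 5 tested differentiated markers had an unadjusted p under 0.05 and 0 were called, and no marker of either list was at 0 in every library. Their part in the stromal Aldh3a1 values was not tested.

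**Figure D4:**
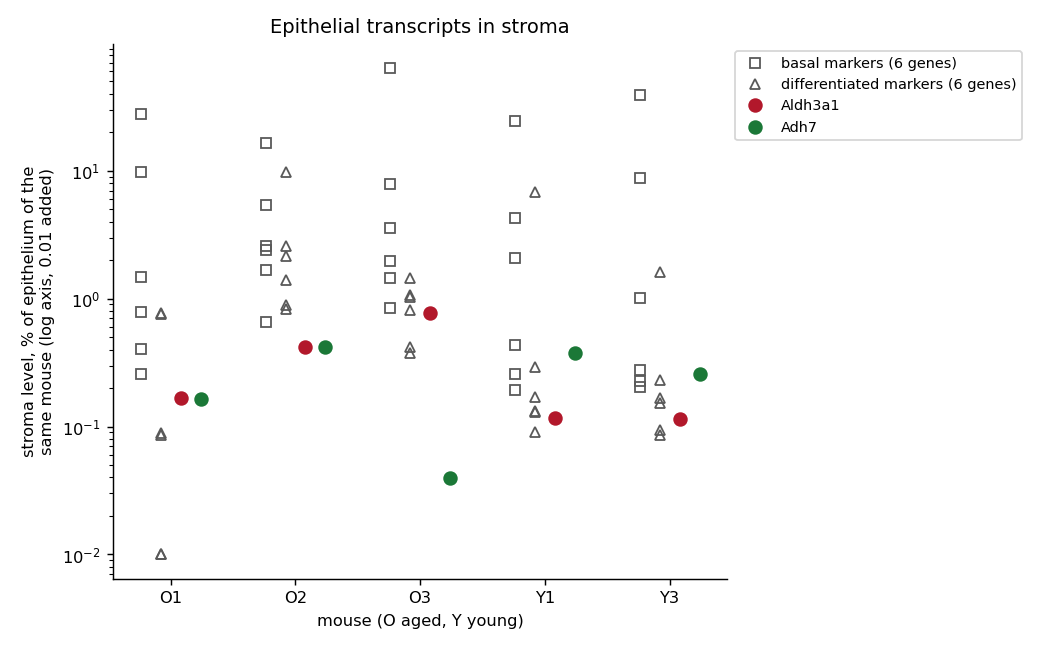
Stromal normalized count as a percentage of that in the epithelium of the same mouse (log axis, 0.01 added), for Aldh3a1, Adh7 and the 6 basal and 6 differentiated keratinocyte markers in the 5 mice with both layers, each point 1 gene in 1 mouse. Aldh3a1 lies at 0.104% to 0.762%, below the marker median in 5 of 5 mice, while Itga6 is the highest marker at 16.4% to 63.2%.

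For Aldh1a2 in stroma, the values lay the other way. They were 3.15, 8.67 and 7.15 in aged O1, O2 and O3 and 14.3 and 11.9 in young Y1 and Y3, so the young libraries lay above the aged ones, as in 14% of all tested genes. Aged over young, the log2 fold change was -1.04 (SE 0.49, 95% interval -2.14 to 0.05, unadjusted p = 0.0587, adjusted p = 1.0, edgeR). Markers of other stromal cells differed between the same libraries: summed Schwann cell markers were 10.2 to 33.1 in aged and 40.5 to 57.1 in young stroma, adipocyte markers 83.4 to 201 and 126 to 405, and smooth muscle markers 3219 to 5480 and 3061 to 3699. An unadjusted p under 0.05 was found for 1 of 3, 2 of 3 and 4 of 5 markers of these lists, with 0 called. Their part in the Aldh1a2 values was not tested.

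**Figure D5:**
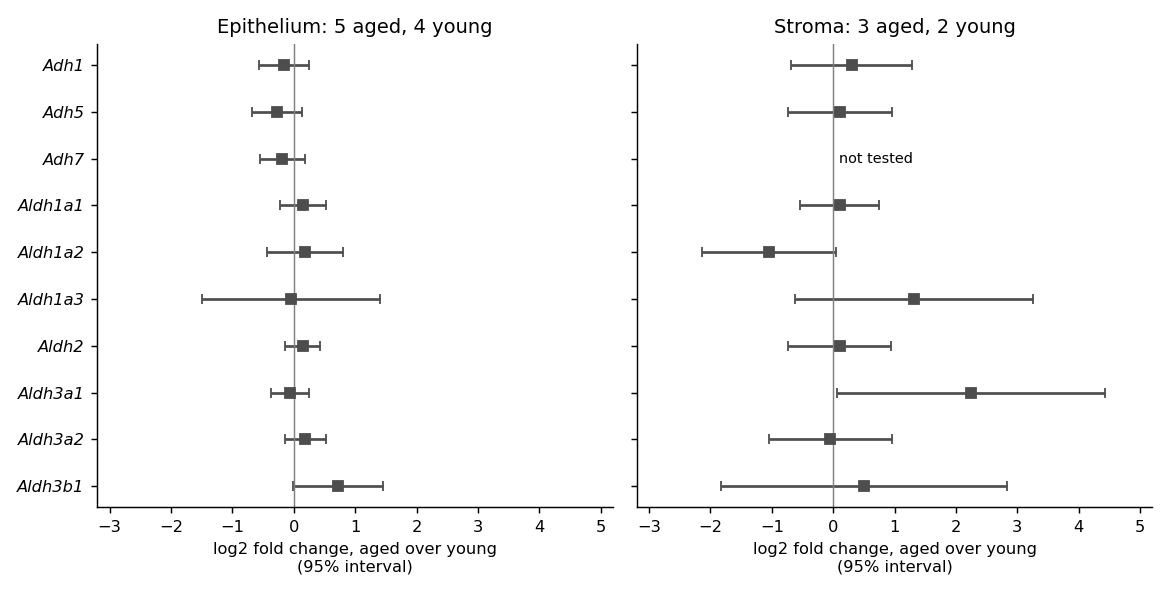
Log2 fold change of aged over young mice for each gene in epithelium (5 aged and 4 young) and in stroma (3 aged and 2 young), with 95% intervals from edgeR. Intervals are wider in stroma, Adh7 was not tested there, and the interval of Aldh3a1 in stroma alone does not reach 0, at 0.07 to 4.42.

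Whether age acted differently in the layers was tested in the 10 libraries of the 5 mice with both. For this difference, 0 of the 10 members were called with edgeR or DESeq2. Among all 22771 genes tested, 0% were called with edgeR and 4.3% had an unadjusted p under 0.05, and DESeq2 called 62. Only Aldh3a1 had an unadjusted p under 0.05, with a difference of -2.07 (SE 0.69, 95% interval -3.59 to -0.54, unadjusted p = 0.0126, adjusted p = 1.0, edgeR). It rests on the same stromal values as above. The other 9 ran from -1.28 for Aldh1a3 to 1.01 for Aldh1a2, each with an interval that included 0. In the other alcohol and aldehyde dehydrogenases, the ethanol and retinoid genes and the AHR and NRF2 genes, 0 were called by age with edgeR in either layer or for the difference.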

How the data were processed

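Bulk RNA-Seq of 9 epithelial and 5 stromal libraries from 9 mice was analysed. The authors deposited whole-number counts of reads per gene, without normalization, after alignment to GRCm38.p6 with Rsubread and counting with featureCounts. The annotation release, the strand setting and the handling of multi-mapping reads are not given in the sources used here. The single-cell, organoid and human data were not analysed here.

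The quasi-likelihood test of edgeR 4.0.16 (R 4.3.3) was applied to the counts (TMM factors, genes kept by filterByExpr at its minimum count of 10, glmQLFit with robust estimation, Benjamini-Hochberg adjustment over all genes tested, threshold 0.05). The layers were compared over 14 libraries without a covariate, age in 9 epithelial libraries with the form of the mouse code (mice with both layers or epithelium only) as covariate, age in 5 stromal libraries, and the interaction in 10 libraries. Genes that were named were the 10 members, their nearest relatives and the called genes of the lists, apart from some that are counted in their list and not reported here by name. The members and lists were chosen with earlier results of these data known. A standard error is the log2 fold change divided by the square root of F.

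The epithelium and stroma of a mouse were paired by the shared code. Their deviations from the group means, over 6346 genes, correlated with r of 0.0029 in O1, 0.088 in O2 and 0.039 in O3. Y1 and Y3 shared 1 value of 0.27, because deviations from the mean of 2 mice mirror each other. These values alone do not test the pairing. The 20 pairs of libraries within groups differed by more than sampling noise. Alternatives were DESeq2 1.42.0, upper quartile normalization, other filters, covariates and subsets, rRNA and mitochondrial loci left out, blocks, and each mouse left out. The procedure was also run on simulated counts, drawn without pairing of layers and without a difference between the forms of the mouse code. That run therefore does not test how the procedure handles these features of the data. Exon lengths are from GENCODE M21, promoters from RefSeq, for which the table used held Adh1, Adh5, Adh7, Aldh1a1, Aldh1a2, Aldh3a2 and Aldh3b1 among the members. Depth limits low genes: 3 counts equal 0.0872 to 1.25 normalized counts, and intervals reflect the spread between libraries, with counting error as part of it.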

Additional observations from a re-analysis of the deposited data

Results flagged for a closer look

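Of 20 sets examined, the 10 members in each of the 2 epithelial groups, 2 held a library that stood far from the others of its group. Chance flags about 1 in 20 such sets, and the sets share libraries, so they are not independent. Adh1 in the epithelium of young mouse Y3 was 16.9 normalized counts (517 counts), while the other 3 young libraries lay at 10.1 to 10.8. Aldh2 in the epithelium of young mouse YF5 was 32.5 normalized counts (78 counts), while the other 3 lay at 45.1 to 47.4. Neither gene was called by age with edgeR when the mouse in question was left out.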

How the results depend on the processing

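Between the layers, Adh7, Aldh3a1, Aldh1a1 and Aldh1a3 kept their direction and call under each alternative in which they could be tested. Adh7, Aldh1a2, Aldh1a3 and Aldh3b1 could not be tested with at least 10 counts required in every library, and the number of members called higher was then 1 instead of 2. That filter also turned Adh1 to -0.015 and Aldh3a2 to -0.024. The number called lower ran from 2 to 4, and as single mice were left out Aldh1a2 ran from -1.23 to -0.76 and Aldh1a3 from -3.52 to -2.23, the latter without mouse O3. With mouse as a replicate block, in the paired layers of 5 mice, 2 members were called higher (Adh7 8.75, Aldh3a1 8.75) and 3 lower, and the block changed no call of a member.

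By age and for its difference between layers, 0 members were called under each alternative run, but small fold changes changed sign. Over the mice left out, values in epithelium ran from -0.37 to 0.073 (Adh1), -0.30 to 0.010 (Adh7), -0.0065 to 0.68 (Aldh1a2), -0.39 to 0.37 (Aldh1a3) and -0.15 to 0.074 (Aldh3a1). In stroma they ran from -0.16 to 0.92 (Adh1), -0.092 to 0.31 (Adh5), -0.12 to 0.29 (Aldh1a1), -0.31 to 0.62 (Aldh2), -0.27 to 0.18 (Aldh3a2) and -0.55 to 0.97 (Aldh3b1). For the difference they ran from -0.51 to 0.031 (Adh5), -0.069 to 1.80 (Adh7), -0.075 to 0.38 (Aldh1a1), -2.32 to 0.13 (Aldh1a3), -0.51 to 0.61 (Aldh2) and -0.53 to 1.28 (Aldh3b1). In the epithelium of mice with both layers only, Aldh1a2 was -0.050, Aldh1a3 0.021 and Aldh3a1 0.18, and Aldh3a1 was 0.053 without the covariate. With the number in the mouse code as a replicate block, which joins different mice of like number, Aldh3a1 in epithelium was 0.033, and Aldh1a1 and Aldh3b1 in stroma were -0.014 and -0.090. Without a filter, the difference was -0.042 for Aldh1a1, -0.11 for Aldh2 and -0.093 for Aldh3b1. The cause of these changes was not tested.

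Counts over all genes moved more. By layer, 9441 genes were called, against 4316 with at least 10 counts in every library. By age, 2 were called in epithelium against 28 with DESeq2 and 36 without a filter, and 0 in stroma against 2 with DESeq2, 26 without a filter, 6 with the number as a block, 13 without mouse Y1 and 7 without mouse Y3, where 1 young library is assumed to vary like the others. For the difference, 0 were called against 62 with DESeq2 and 98 without a filter. The median of all genes by layer was -0.05, and 0.14 with mouse as a block.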

Other observations

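Aldh1l1, which encodes the cytosolic 10-formyltetrahydrofolate dehydrogenase and belongs to the other aldehyde dehydrogenases, was picked out after its values had been seen. In stroma it was 1.52, 0.945 and 1.30 normalized counts in aged O1, O2 and O3 (23 to 34 counts), and 7.79 and 12.7 in young Y1 and Y3 (151 and 323 counts). The young libraries lay above the aged ones, as in 14% of all tested genes. The log2 fold change of aged over young was -3.04 (SE 0.58, unadjusted p = 0.000385, adjusted p = 1.0, edgeR). In epithelium the values overlapped, with 1.38 to 4.39 in aged and 1.81 to 2.92 in young mice, and the difference of the age effect between the layers was 3.90 (SE 0.60, adjusted p = 0.174, edgeR). Neither value passed the correction over all genes.

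Cyp2e1, the microsomal ethanol oxidase, varied in the same libraries. It was 15.2, 9.53 and 9.37 in aged O1, O2 and O3 and 21.8 and 136 in young Y1 and Y3, so that 1 library, Y3, held the highest value by far. Its log2 fold change was -2.81 (SE 0.59, unadjusted p = 0.000858, adjusted p = 1.0, edgeR). Summed adipocyte markers were 91.6, 83.4, 201, 126 and 405 in O1, O2, O3, Y1 and Y3, and summed Schwann cell markers were 10.2, 20.0, 33.1, 57.1 and 40.5. Their part in the values of Aldh1l1 and Cyp2e1 was not tested.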
